A study of Homo sapiens with 12 samples.

Results

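Regions of open chromatin were compared between U2OS cells expressing full-length FOXA2 and U2OS cells expressing FOXA2 without its CTD, the C-terminal domain. The peaks of 4 lists, 2 libraries per construct, on chromosomes 1 to 22 and X were merged wherever they overlapped by at least 1 bp, which gave 273539 regions. Of these, 5042 had a peak in both full-length lists and in neither CTD deletion list and are called full-length-specific. Another 6523 had a peak in both CTD deletion lists and in neither full-length list and are called CTD-deletion-specific. A further 28424 regions had a peak in all 4 lists.

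The assay was ATAC-seq, which marks open DNA by letting a transposase cut and tag it, and the cells were U2OS, an established human osteosarcoma line. The full-length group had the genotype Tet-on FOXA2 and the deletion group Tet-on FOXA2dCTD, each with Flag-tagged protein induced by doxycycline at 500 ng/ml for 4 days and with 2 biological replicates. Of the 12 samples of the series, 2 further U2OS samples labelled wild type and 1 list for a wild type of the SOX2 cell line were used only to look regions up. The same holds for 1 list each of U2OS cells expressing SOX2 and a SOX2-FOXA2 CTD fusion. Both of these groups were induced at 500 ng/ml for 4 days. The doxycycline text stands in the protocols of every sample, while the treatment field of the wild types reads NA, so their doxycycline status is not known. The labels give neither the residues removed from FOXA2 nor whether a line was 1 clone or a pool, so a difference between cell lines and a difference between constructs cannot be told apart.

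FOXA2 is a transcription factor with a forkhead DNA-binding domain, needed for the formation of endoderm and for liver, pancreas and lung genes. It is a pioneer factor: it can bind its sites in closed nucleosomal chromatin, after which other factors may gain access. The C-terminal part of FOXA proteins has been linked in the literature to binding of core histones and to the opening of compacted chromatin. AP-1, the family of FOS and JUN dimers, binds at many distal open regions of mesenchymal cells such as U2OS.

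The lists were not made alike. They held 161136 and 57946 peaks for full-length replicates 1 and 2, and 78820 and 146854 for CTD deletion replicates 1 and 2. The list of full-length replicate 2 had no mitochondrial peak and a lowest −log10 p of 5.22, whereas each of the other 3 had 2 mitochondrial peaks and a lowest −log10 p of 2.01. Wild type replicate 2 resembles full-length replicate 2 in both features, and the deletion group has no library of that kind, so the processing and the construct cannot be told apart for it. The peak names of the library labelled wild type replicate 1 begin with dc0 and those of both deletion lists with dc4, and the labels do not say from which line that wild type came. Comparisons were therefore repeated with each list cut to its 57946 strongest peaks, called equal length here, and read depth is unknown. At equal length, of 10 osteoblast and mesenchymal marker genes, 5 and 6 had a peak within 1 kb of a gene end in the full-length lists and 3 and 3 in the deletion lists. Of 5 hepatocyte markers only APOA1 had one, in each of the 4 construct lists. Of 5 epithelial markers only KRT8 had one, in each of these lists, and the number of 6 blood markers with a peak was 1, 2, 3 and 2.

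Few members lay at promoters, and with all peaks the promoter windows overlapped by the 2 sides differed in AP-1 matches. The RefSeq promoter windows, 300 bases from 250 before to 50 after the start of 15812 genes on GRCh38.p14, were searched on both strands for the AP-1 motif TGANTCA and for the forkhead motif TGTTTAC. The forkhead search also took in the variant TATTTAC as well as the further variant TGTTTGC. TEAD, RUNX, CTCF, SOX and ETS motifs were searched too, and their shares are given under Other observations. AP-1 is given first because its shares differed most between the sides with all peaks. CTD-deletion-specific regions overlapped 66 windows, of which 10 held an AP-1 match (15.2%, Wilson 95% interval 8.44 to 25.7). Full-length-specific regions overlapped 150 windows, of which 2 held one (1.33%, interval 0.366 to 4.73). Among all 15812 windows 5.76% did, and among the 6499 overlapped by regions of all 4 lists 3.83%. The matches of the deletion side are printed here because they carry this difference, on the strand of the gene, with the motif in capitals and up to 11 bases on either side in lower case.
ASCL5 promoter, chr1:201127237-201127265, minus strand: ccgtttgaagtTGAATCAggtaaagtgta
CAPN2 promoter, chr1:223701408-223701436, plus strand: tctttgtgctcTGAGTCAgaagctatgtg
CAPN2 promoter, chr1:223701443-223701471, plus strand: ttgctaaaatgTGACTCAaacacagcctc
CPA4 promoter, chr7:130293102-130293130, plus strand: ttttgaggactTGAGTCActctcagactc
CPA4 promoter, chr7:130293135-130293163, plus strand: taaatacagctTGACTCAgccactgtatg
CXCL14 promoter, chr5:135579066-135579094, minus strand: agaaatctcagTGAGTCAccgagtggttc
IL1RL1 promoter, chr2:102337055-102337083, plus strand: ataggaggaaaTGATTCAattatttcctc
LOC124904583 promoter, chr1:202825951-202825979, minus strand: gtccaaaagaaTGACTCAtccagagtgta
MBNL2 promoter, chr13:97141737-97141765, plus strand: ggagcagagaaTGACTCAcattctctgtg
MBNL2 promoter, chr13:97141758-97141786, plus strand: tctctgtgacaTGAGTCActcccatgcaa
OR2F2 promoter, chr7:143935159-143935187, plus strand: ttatgattcttTGATTCAacagcttctgt
RAB3B promoter, chr1:51990802-51990830, minus strand: cctggaggtccTGAGTCAcctcggattac
SLAMF9 promoter, chr1:159954365-159954393, minus strand: ggatggcatcaTGAGTCAgtgagtaaact

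All but 1 of the 13 printed stretches lay at least in part under the region itself, the exception being LOC124904583. At CXCL14 only flanking bases did, since the region ended at chr5:135579075, outside the motif. CPA4, CAPN2 and MBNL2 held a pair of matches each. CAPN2 encodes a calpain protease subunit, CXCL14 a chemokine, MBNL2 an RNA splicing factor, RAB3B a small GTPase of secretory vesicles and IL1RL1 the receptor of interleukin-33. At CXCL14 the region had ranks of 45.2 and 64.5 in the deletion lists (percentile by −log10 p, where 100 is the strongest peak of a list). At CAPN2 the ranks were 75.7 and 84.8. Both of these regions also overlapped a peak of wild type replicate 1. Of the 13 matches, 10 belonged to regions that overlapped an entry of the list for the wild type of the SOX2 cell line. Those of IL1RL1, LOC124904583 and OR2F2 did not. Of the 2 full-length matches given next, 1 did.

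On the full-length side the AP-1 matches were in the promoters of AP5B1, which encodes a subunit of an adaptor complex, and of FOXO4, a forkhead factor of another subfamily. Of these matches only that of FOXO4 lay under the region.
AP5B1 promoter, chr11:65780927-65780947, minus strand: cccgcggcggcTGAGTCAggc
FOXO4 promoter, chrX:71095601-71095628, plus strand: tacacgactcTGAATCAcaagggagaca

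At equal length the AP-1 shares were 8 of 70 windows (11.4%, interval 5.91 to 21.0) on the deletion side and 16 of 320 (5.0%, interval 3.10 to 7.97) on the full-length side. The intervals overlap there, and they cover counting error only, since regions are not replicate cultures. The median GC content of the windows was 59.2% on the deletion side, 68.7% on the full-length side and 62.7% over all windows. Its part in the AP-1 shares was not tested.

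Forkhead matches, the kind of site that FOXA2 itself binds, did not separate the sides. They were found in 6 of 150 windows of the full-length side (4.00%, interval 1.85 to 8.45), in 3 of 66 of the deletion side (4.55%, interval 1.56 to 12.5) and in 7.53% of all windows. The full-length matches are printed first.
FOXO4 promoter, chrX:71095863-71095891, plus strand: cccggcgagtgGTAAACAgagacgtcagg
LIN54 promoter, chr4:83011040-83011068, minus strand: cttttggtcttGCAAACAaaaatatgccg
NSMCE3 promoter, chr15:29269967-29269995, minus strand: ttctcgctctcTGTTTGCatggtttggta
PBXIP1 promoter, chr1:154956110-154956138, minus strand: cttctcgggctGCAAACAaagggaagcct
SOX12 promoter, chr20:325443-325471, plus strand: gggcacctcggTGTTTACacggggcggcc
UBL5 promoter, chr19:9827789-9827817, plus strand: acctgggaacaGCAAACAcaccacagact

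The deletion side held 3.
ANKRD28 promoter, chr3:15798186-15798214, minus strand: ccgtttggaatTGTTTACttgctaaaacc
OR2F2 promoter, chr7:143935035-143935063, plus strand: tctaatgcaaaGTAAATAtagtgtatgtt
SEMA5B promoter, chr3:123028593-123028621, minus strand: cacttaaacttGTAAACAattcggcctcg

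SOX12, a SOX family factor, PBXIP1, which binds PBX homeodomain proteins, and LIN54, a subunit of a cell cycle repressor complex, were among the full-length genes, and SEMA5B, a guidance cue, was among the deletion genes. A match describes these letters only, and occupancy by FOXA2 was not analysed here.

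The number of regions on each side depended on how many peaks the lists held. With all peaks, 1.84% of the merged regions were full-length-specific, 2.38% were CTD-deletion-specific and 10.4% were in all 4 lists. At equal length, 5792 of 115483 regions (5.02%) were full-length-specific, 4467 (3.87%) were CTD-deletion-specific and 20412 (17.7%) were in all 4 lists, so that the order of the sides turned. With the strongest 40000 peaks the counts were 4174 and 3789. With the strongest 20000 they were 2251 and 2285, and with the strongest 10000 they were 1135 and 1236. At a common −log10 p of at least 5.22 they were 6779 and 2082.

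**Figure D1:**
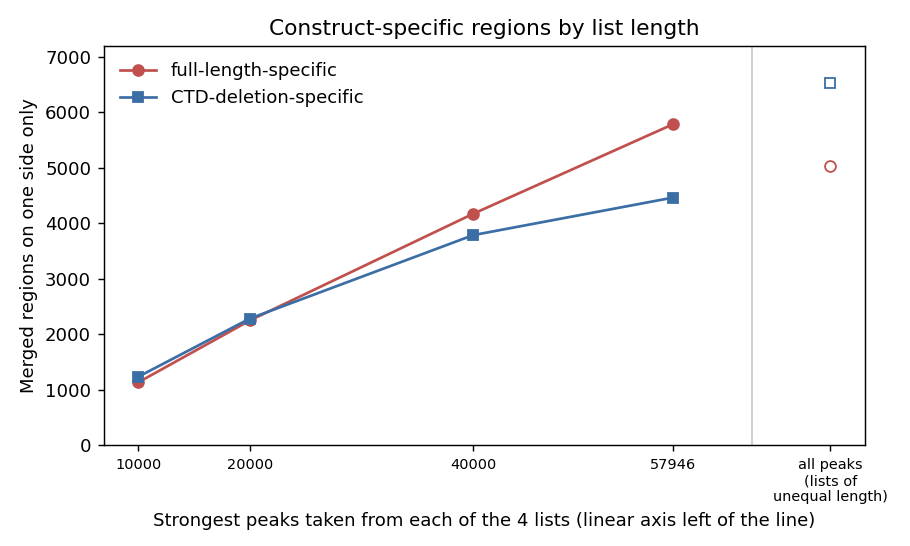
Merged regions found in both libraries of 1 construct and in neither of the other (vertical axis) against the number of strongest peaks taken from each list (horizontal axis), with the uncut lists as open symbols at the right. The full-length count is above the deletion count at 57946 and 40000 peaks, the counts differ by 34 at 20000, and the deletion count is higher with the uncut lists.

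Membership itself was only partly stable. Of the 5042 full-length-specific regions 2852 (56.6%) were also full-length-specific at equal length, where they made up 49.2% of that set. Of the 6523 CTD-deletion-specific regions 2459 (37.7%) were, making up 55.0% of theirs. Just outside the rule with all peaks, 8767 regions had both full-length peaks and a peak in deletion replicate 2 alone, and 2299 had one in deletion replicate 1 alone. Likewise 7615 regions had both deletion peaks and a peak in full-length replicate 1 alone, and 2396 had one in full-length replicate 2 alone. In both cases the longer list of the other construct held the extra peak more often. Without full-length replicate 2, 93927 regions counted as full-length-specific, since a single long list then defined the side, and without deletion replicate 1, 80091 counted as CTD-deletion-specific.

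The clearest difference between the sides was in how often they overlapped chromatin that was already open in wild-type U2OS cells, which the rule did not use. Of the CTD-deletion-specific regions 36.1% (Wilson 95% interval 34.9 to 37.3) overlapped an entry of the wild type of the SOX2 set with an irreproducible discovery rate (IDR) of at most 0.05. Of the full-length-specific regions 12.1% (interval 11.3 to 13.1) did, against 51.3% of the regions in all 4 lists and 15.9% of all merged regions. In wild type replicate 1 the shares were 12.3% on the deletion side and 2.64% on the full-length side. In wild type replicate 2 they were 9.43% and 8.17%. Wild type replicate 1 is the library whose peak names resemble those of the deletion lists. The deletion side thus lay closer to the shared regions than the full-length side did in the SOX2-set wild type and in wild type replicate 1, and the sides were nearly level in wild type replicate 2.

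At equal length the shares were 49.4% of 4467 on the deletion side, 17.6% of 5792 on the full-length side, 55.3% of the regions in all 4 lists and 29.7% of all merged regions for the SOX2-set wild type. For wild type replicate 1 they were 21.4% and 4.77%, and for replicate 2 they were 16.4% and 9.32%. The strongest 10000 peaks gave 70.3% and 36.0% for the SOX2-set wild type, so the gap was present among strong peaks as well. With entries of any IDR the shares over all peaks were 57.4% and 25.5%.

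**Figure D2:**
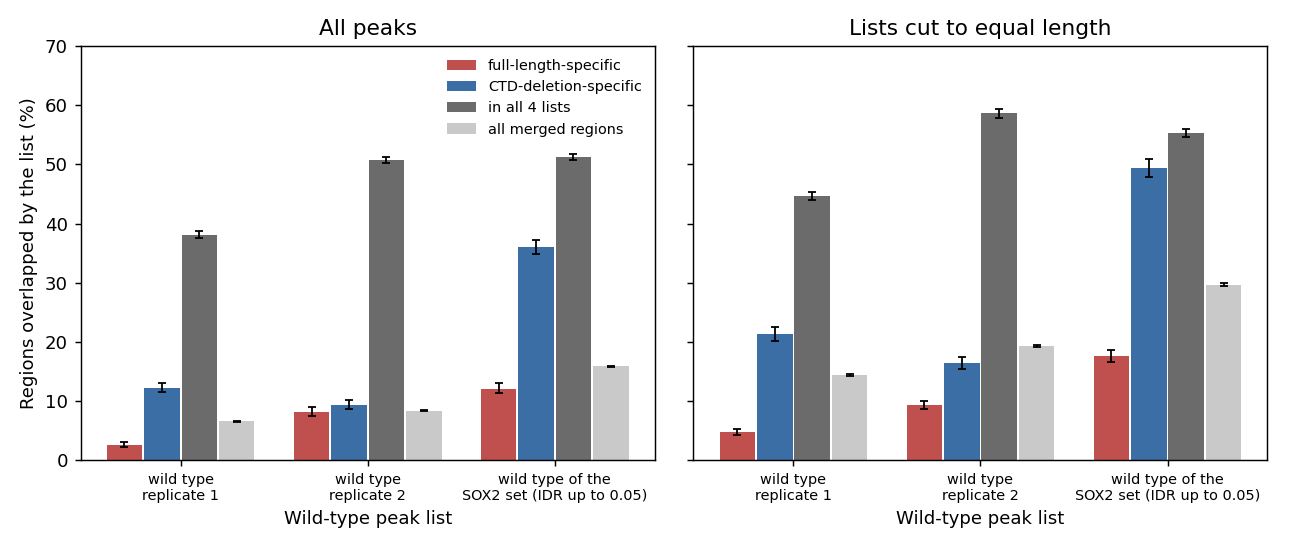
Share of regions (percent, vertical axis) overlapped by each of 3 wild-type lists (horizontal axis), with all peaks on the left and lists of equal length on the right; bars are the kinds of region and error bars are Wilson 95% intervals. In the SOX2-set wild type at equal length the deletion bar (49.4%) stands near the bar of regions in all 4 lists (55.3%), and the full-length bar (17.6%) is below that of all merged regions (29.7%).

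In the SOX2-set wild type and in wild type replicate 1 the gap was wider among stronger peaks. Regions were placed in classes by the lower of their ranks in the 2 libraries of their construct, and these ranks come from lists of unequal length and threshold. Among CTD-deletion-specific regions the share with an entry in the SOX2-set wild type was 26.4% of 1856 in the lowest class, with ranks up to 20, and 61.3% of 199 in the highest, with ranks above 80. Among full-length-specific regions it was 14.1% of 1730 in the lowest class and 6.82% of 88 in the highest. In wild type replicate 1 the deletion shares ran from 7.70% to 27.1% and the full-length shares from 2.08% to 4.55%. In wild type replicate 2 the deletion shares were 5.12%, 6.96%, 9.53%, 17.6% and 29.1% from the lowest class to the highest, and the full-length shares 4.51%, 8.68%, 9.08%, 14.6% and 17.0%. The sides were close in the lower 3 classes there, with the full-length share higher in 1 of them.

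**Figure D3:**
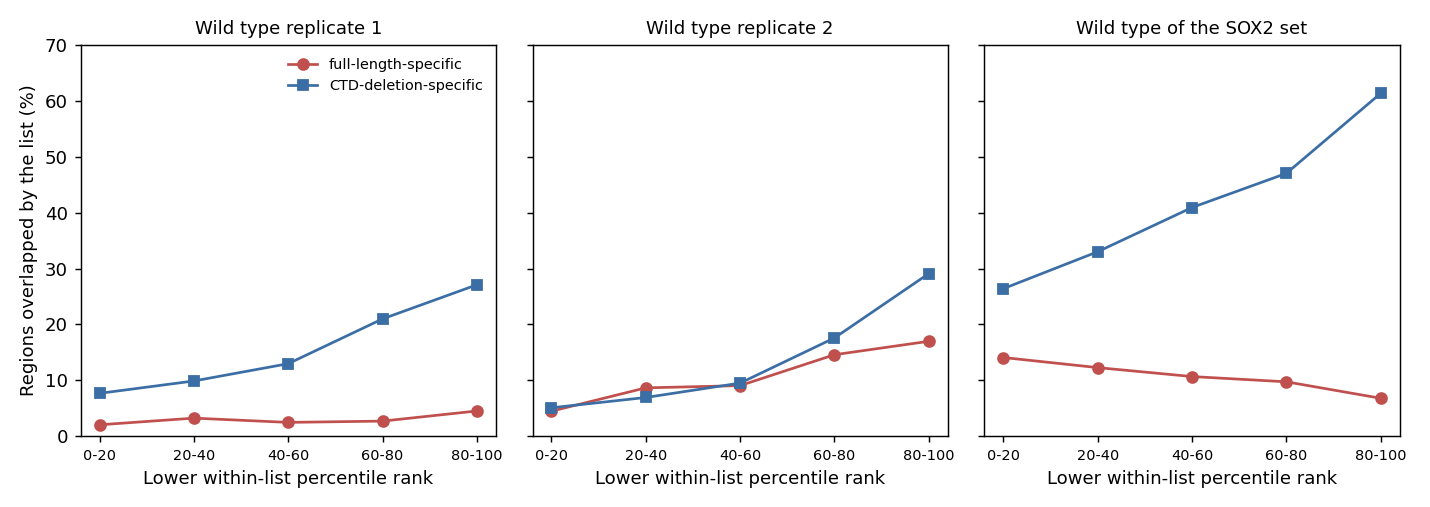
Share of specific regions (percent, vertical axis) overlapped by each wild-type list (1 panel each) in 5 classes of the lower within-list percentile rank (horizontal axis). In the SOX2-set wild type the deletion line rises from 26.4% to 61.3% while the full-length line goes from 14.1% to 6.82%.

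These shares describe regions, and the spread between libraries was looked at separately. Of the 57946 strongest peaks of each library, 34.9% and 37.4% overlapped the SOX2-set wild type with full-length FOXA2, against 38.4% and 44.4% with the CTD deletion. The groups did not overlap, with means of 36.2% ± 1.82 and 41.4% ± 4.27 (SD, n = 2), and the exact two-sided permutation p was 0.333, the smallest that 2 libraries against 2 can give. At the strongest 20000 peaks the values were 46.4% and 45.9% against 51.2% and 59.2%. For wild type replicate 1 they were 20.6% and 21.9% against 23.2% and 24.4% at 57946 peaks, again without overlap and with an exact permutation p of 0.333. For wild type replicate 2 they were 27.2% and 33.7% against 30.4% and 30.2%, which overlapped, and the high value was that of full-length replicate 2, the library whose list had been made like it.

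Comparing 1 list with 1 list at equal length, the regions of the deletion list alone overlapped the SOX2-set wild type more often in 4 of 4 pairs. The gap was widest for full-length replicate 1 against deletion replicate 2, at 16.1% and 36.2%, and narrowest for full-length replicate 2 against deletion replicate 1, at 24.8% and 26.1%. The other pairs gave 21.0% and 27.9%, and 19.1% and 34.7%. In wild type replicate 2 the direction differed: deletion shares were higher by 6.41 and 6.00 percentage points in the pairs with full-length replicate 1 and lower in the pairs with full-length replicate 2, with differences of -7.97 and -9.47. The direction in the SOX2-set wild type also turned when the deletion side was defined by a single list, with 11.9% against 14.8% without deletion replicate 1 and 14.5% against 25.9% without deletion replicate 2.

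Full-length-specific regions lay close to a gene start more often than CTD-deletion-specific ones, and slightly more of them lay far from one. The share within 1 kb of the start site of a protein-coding gene was 5.33% (interval 4.73 to 6.01) on the full-length side, 2.14% (interval 1.80 to 2.53) on the deletion side, 22.8% for regions in all 4 lists and 4.89% for all merged regions. At equal length it was 7.01%, 2.34%, 26.2% and 9.43% in the same order, so both sides were below the merged regions there. Without full-length replicate 2 the order turned, with 1.96% on the full-length side and 4.22% on the deletion side. The median distance to the nearest start site was 80209 bp on the full-length side and 96464 bp on the deletion side. It was 50438 bp for regions in all 4 lists and 93091 bp for all merged regions. The shares over 500 kb from a start site were 16.7% and 14.4% on the 2 sides, and 16.2% and 13.4% at equal length. Among all merged regions the share was 15.9% in both settings, so the full-length side was near that background. Of the full-length-specific regions 47.7% lay in a protein-coding gene, against 42.2% on the deletion side, 56.0% of regions in all 4 lists and 44.8% of all merged regions. Members also differed in how near they were to shared regions: 26.7% of the full-length-specific and 15.5% of the CTD-deletion-specific regions lay within 10 kb of a region in all 4 lists, and 15.7% and 10.1% did at equal length.

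Across libraries the difference near start sites did not exceed the spread. The share of the strongest 57946 peaks within 1 kb of a start site was 14.1% and 16.1% with full-length FOXA2 and 12.3% and 14.8% with the CTD deletion, a difference of 1.56 percentage points with an exact two-sided permutation p of 0.667. The groups overlapped, and at the common −log10 p the difference had the other sign, at -0.658. Start sites came from the RefSeq promoter windows, which cover 15812 of 19974 protein-coding genes and none on chromosome 8.

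Specific regions were weaker and narrower than shared ones in every construct library, while the 2 libraries of a construct did not rank them alike. A shared region needs a peak in all 4 lists, which favours strong and wide peaks, so this order is partly set by the rule. In full-length replicate 1 the median rank was 69.4 for full-length-specific peaks and 85.9 for peaks of regions in all 4 lists. In full-length replicate 2 it was 33.1 and 67.5. In the deletion lists CTD-deletion-specific peaks had median ranks of 45.9 in replicate 1 and 58.8 in replicate 2, against 75.2 and 85.3 for shared peaks. Full-length-specific regions were therefore above the middle of the longer list and below the middle of the shorter list of their construct. Only 0.732% of the full-length-specific peaks of replicate 2 had a rank above 90, against 10.1% in replicate 1, 1.90% on the deletion side in replicate 1 and 4.76% there in replicate 2.

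The median width of full-length-specific peaks was 372 bp in replicate 1 and 298 bp in replicate 2. That of CTD-deletion-specific peaks was 317 bp in both replicates. Peaks of regions in all 4 lists had medians of 577, 454, 534 and 563 bp in full-length replicates 1 and 2 and deletion replicates 1 and 2. In that order, the equal-length medians were 471, 322, 403 and 463 bp for specific peaks and 636, 499, 579 and 611 bp for shared ones. Over whole lists of equal length the median widths were 487 and 366 bp with full-length FOXA2 and 416 and 486 bp with the CTD deletion, which overlapped, with a difference of -24.2 bp and an exact two-sided permutation p of 1.0.

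**Figure D4:**
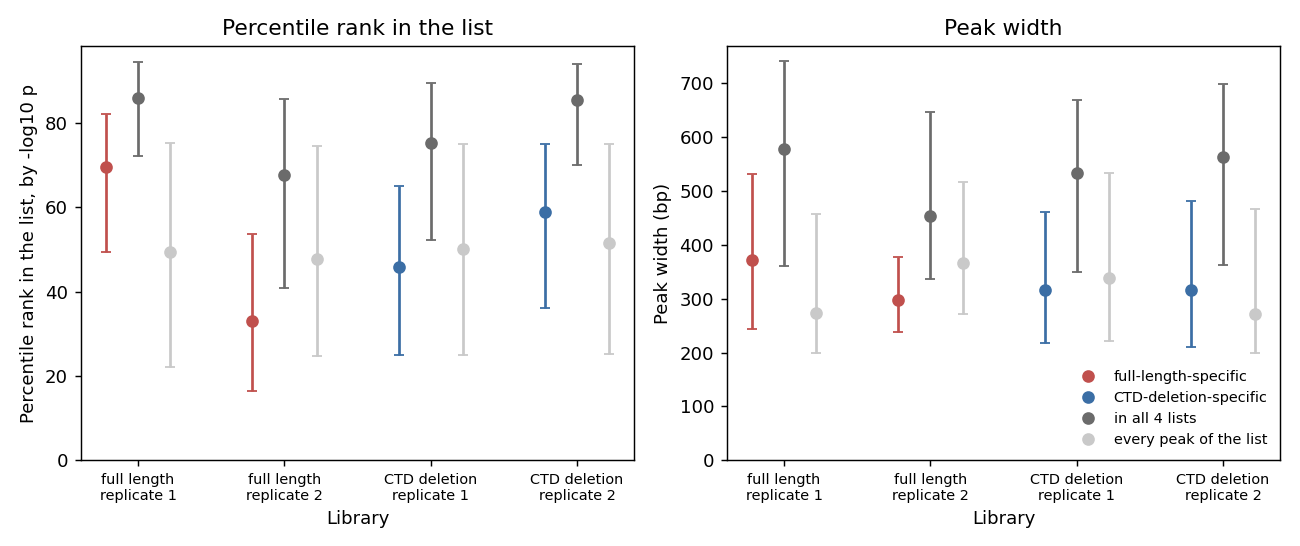
Median (points) and quartiles (bars) of the within-list percentile rank by −log10 p (left) and of the peak width in bp (right) for specific peaks, peaks of regions in all 4 lists and every peak, in each of the 4 libraries. Specific peaks sit below the shared peaks in all 4 libraries, from 33.1 to 69.4 against 67.5 to 85.9 in rank and from 298 to 372 bp against 454 to 577 bp in width.

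The 8 strongest full-length-specific regions had no peak in either wild-type list and no entry at any IDR in the SOX2-set wild type. The strongest, chr6:60933249-60934106, was 858 bp wide and had ranks of 99.9 and 99.8 in full-length replicates 1 and 2, with deposited fold enrichments of 10.2 and 28.6. It lies 608564 bp from the nearest protein-coding gene, KHDRBS2, in the pericentromeric part of the chromosome, where repeats make read placement uncertain. Of the 8 regions 5 lay inside a gene. The region in CPNE4, which encodes a calcium-dependent membrane-binding copine, was chr3:131978078-131978629, with ranks of 98.8 and 99.5. The region in EP400, a chromatin remodelling subunit, was chr12:131998485-131999075, with ranks of 99.5 and 96.7. It was the only one of the 8 with entries in other lists of the series, at an IDR of 0.00300 with SOX2 and 0.00133 with the SOX2-FOXA2 CTD fusion. The region in GPR173, an orphan receptor gene on chromosome X, had ranks of 95.7 and 98.2. The region 168038 bp from ITGA4, an integrin subunit gene, had ranks of 95.3 and 93.5. The others lay in PKIA and CNTNAP3B and 7030 bp from GOLGA8S, and the last 2 of these genes belong to families with near-identical copies, which makes their positions uncertain.

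Of the 8 strongest CTD-deletion-specific regions, by contrast, 6 overlapped a peak of at least 1 wild-type list and 7 had an entry in the SOX2-set wild type. The strongest, chr3:115518508-115518970, lay 104540 bp from GAP43, a growth cone protein gene, with ranks of 94.6 and 96.2 and a rank of 76.5 in wild type replicate 1. The region in STK32B, a kinase gene, was chr4:5037869-5038688, with ranks of 96.4 and 94.2 and peaks in both wild-type lists. The region in RRAS2, a RAS-related GTPase gene, was chr11:14336994-14337605, with ranks of 97.1 and 93.9 and a rank of 70.6 in wild type replicate 1. The region in LEPR, the leptin receptor gene, was chr1:65425590-65426246. It had ranks of 95.6 and 92.5, of 64.1 in wild type replicate 1 and of 87.6 in wild type replicate 2. The region in PDE3A, a phosphodiesterase gene, was chr12:20492073-20492754, with ranks of 92.3 and 95.2 and with 81.1 and 77.6 in the wild types. BCL2L1, which encodes the survival factor BCL-XL, held the only one of the 8 without an entry in the SOX2-set wild type, and the remaining pair lay near PSG1 and RASSF8. The BCL2L1 region had no peak in either wild-type list as well, and neither did the one near RASSF8.

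At equal length the strongest CTD-deletion-specific regions had LMX1A, MDGA2, RUNX1, LRRC4C, PRLR, CEP128 and OXR1 as nearest genes or lay in GULP1. Outside GULP1 the distances ran from 34932 bp at OXR1 to 887689 bp at MDGA2. For all 8 the uncut list of full-length replicate 1 had a peak below the cut, at ranks from 7.61 at PRLR, the prolactin receptor gene, to 57.8 at GULP1, an engulfment adaptor gene. Both deletion libraries ranked the same regions high, with 98.2 and 98.6 near LMX1A, a homeodomain factor gene, where full-length replicate 1 had 33.1. The corresponding full-length regions that were absent from the all-peaks set lay in ANO2 and PARG, 117300 bp from WDR11 and 531796 bp from PRIM2. At PARG, a poly(ADP-ribose) glycohydrolase gene, the ranks were 98.0 and 95.9 with full-length FOXA2 and 9.26 and 25.2 with the deletion.

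Specific regions of either side were found near a large share of all genes. With all peaks, 7449 of 19974 protein-coding genes (37.3%) had at least 1 full-length-specific region within 100 kb of the gene, and 8119 (40.6%) had at least 1 CTD-deletion-specific region. At equal length these shares were 43.0% and 29.1%, and regions in all 4 lists were found near 90.5% of genes with all peaks and 84.9% at equal length. Within 20 kb the shares were 16.7% for full-length-specific, 17.1% for CTD-deletion-specific and 71.1% for shared regions. Counts for single genes are read against these backgrounds.

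The genes with the largest excess of full-length-specific regions within 100 kb of the start site had 5 or 4 of them and no CTD-deletion-specific region. SCAND1, which encodes a SCAN domain protein, had 5, and its neighbour CNBD2 shared 4 of them. DENND4A, an exchange factor gene for RAB GTPases, and RAB11A, a GTPase gene of recycling endosomes, shared the same 5. BRIP1, which encodes a helicase that works with BRCA1, and INTS2, an Integrator complex subunit gene, had 4 each and shared 2. TTC28 had 4, with ranks up to 89.9 and 90.9 in its strongest region, and LOC124905938 had 5 in a duplicated pericentromeric part of chromosome 2. At equal length DENND4A and RAB11A had 1 each, while SCAND1, BRIP1 and INTS2 had 4 each. With ties, 31 genes had an excess at least as large as the last of these 8.

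The genes with the largest excess of CTD-deletion-specific regions formed 1 cluster on chromosome 4 and several single sites. CYP4V2, a fatty acid hydroxylase gene, FAM149A and TLR3, the receptor of double-stranded RNA, had 5 each, and KLKB1, which encodes the plasma prekallikrein made by liver, had 4, most of them shared. The strongest of these regions, chr4:186201757-186202360, lay 10190 bp from the CYP4V2 start with ranks of 94.2 and 90.5. SIGLECL1 had 5 and CFAP45, a cilia protein gene, had 5. CCDC6 and GNG12, which encodes a G protein gamma subunit, had 4 each. None of these 8 genes had a full-length-specific region with all peaks, although CFAP45 and CCDC6 had 1 each at equal length, where each also had only 1 CTD-deletion-specific region and hence no excess. With ties, 19 genes had an excess at least as large.

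The wild-type look-up is given here for the regions in these gene neighbourhoods, which are part of the specific regions already looked up above. Of 25 distinct full-length-specific regions near the 8 genes, 0 had an entry in the SOX2-set wild type, 1 had a peak in wild type replicate 1 and 5 had one in replicate 2. Of 24 distinct CTD-deletion-specific regions, 12 had an entry in the SOX2-set wild type, 5 had a peak in wild type replicate 1 and 1 had one in replicate 2. Over all full-length-specific and CTD-deletion-specific regions the shares were 12.1% and 36.1% in the SOX2-set wild type. They were 2.64% and 12.3% in wild type replicate 1, and 8.17% and 9.43% in replicate 2. These few regions come from genes picked for having the most of them and are no independent look-up.

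Endodermal and liver gene groups had specific regions of both constructs. Of 14 liver plasma protein genes, 7 had a full-length-specific region within 100 kb of the gene (50.0%, against 37.3% of all genes) and 8 a CTD-deletion-specific one (57.1%, against 40.6%). Of 11 hepatic transcription factor genes the numbers were 4 and 5, of 12 hepatic metabolic genes 5 and 5, and of 14 primitive streak and definitive endoderm genes 5 and 5. At equal length, where 43.0% and 29.1% of all genes had one, the shares were 71.4% and 42.9% for the plasma protein genes and 54.5% and 18.2% for the hepatic transcription factor genes. HNF4A, a nuclear receptor of hepatocytes, had 2 full-length-specific regions and no CTD-deletion-specific one, and the stronger, chr20:44475533-44476228, had ranks of 96.5 and 83.9 but also overlapped wild type replicate 2 and the SOX2-set wild type. HHEX, a homeobox factor of early liver, also had 2 and 0. EOMES, a T-box factor of the primitive streak, had 0 and 3, of which 2 overlapped wild type replicate 1 and the SOX2-set wild type. TF, the transferrin gene, had 0 and 3, which turned to 1 and 0 at equal length. CYP8B1, a bile acid hydroxylase gene, had 0 and 3, and 0 and 2 at equal length. Of 12 foregut, pancreas and lung genes 6 had a full-length-specific region and 4 a CTD-deletion-specific one, with 10 and 5 distinct regions. NEUROG3, a pancreatic endocrine factor, had 2 and 0, and SFTPC, a lung surfactant protein gene, had 3 and 1. At equal length NEUROG3 had 1 and 0, and SFTPC had 1 and 1.

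Of 10 epithelial genes 5 had full-length-specific regions (50.0%, against 37.3% of all genes) and 3 CTD-deletion-specific ones (30.0%, against 40.6%), with 12 and 4 distinct regions. These were mostly distal: within 20 kb of the gene, OVOL1 had 1 of each kind, GRHL2 had 2 CTD-deletion-specific regions, and the other 8 genes had neither. KRT8 and KRT18, the paired keratins of simple epithelia, shared 4 full-length-specific regions, the strongest at chr12:52874123-52874587 with ranks of 92.3 and 47.7. OVOL1, a factor of epithelial differentiation, had 3 and 1, and CLDN7, a tight junction claudin gene, had 3 and 0. GRHL2, a regulator of epithelial junction genes, had 0 and 2.

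Of 11 hormone-dependent FOXA target genes 2 had a full-length-specific region (18.2%, against 37.3% of all genes) and 6 a CTD-deletion-specific one (54.5%, against 40.6%), with 2 and 12 distinct regions. ESR1, the oestrogen receptor gene, had 0 and 3, of which 2 were inside the gene, and chr6:152094958-152095599 had ranks of 60.1 and 88.0. KLK3, the gene of prostate-specific antigen, had 0 and 3, and GREB1, an oestrogen-induced gene, had 0 and 2. Both regions inside ESR1 overlapped an entry of the SOX2-set wild type. So did chr19:50890651-50891117 and chr19:50896445-50897163 near KLK3 and chr2:11612289-11613155 in GREB1. The remaining region of each of these genes overlapped no wild-type list. At equal length ESR1, KLK3 and GREB1 had 0 and 1 each. At equal length the distinct regions were 2 and 6 for this group and 10 and 4 for the epithelial group. The shares of genes with one were then 18.2% and 45.5% for this group and 50.0% and 30.0% for the epithelial group. Over all genes they were 43.0% and 29.1%. Groups of 10 or 11 genes with shared neighbours move with few regions, and the lists were chosen with earlier results of these data known.

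The other groups are read against the same shares of all genes, 37.3% and 40.6%. Of 14 osteoblast and mesenchymal genes 3 had a full-length-specific region and 3 a CTD-deletion-specific one, both 21.4%, while 12 had a region in all 4 lists. Of 8 mesenchymal state genes the numbers were 3 (37.5%) and 5 (62.5%), with 3 and 8 distinct regions. The gene numbers turned to 5 and 3 at equal length, where the shares of all genes also turned, to 43.0% and 29.1%. FN1, the fibronectin gene, and SNAI2, a repressor of epithelial genes, had 0 and 2 each. At equal length FN1 kept 0 and 2, while SNAI2 had 1 and 1. Of 11 AP-1 family genes 3 and 2 had a specific region, and all 11 had a region in all 4 lists. FOSL1, an AP-1 subunit gene, had 1 and 3, which turned to 2 and 1 at equal length. Of 13 genes of the TEAD and YAP pathway 4 and 5 had one, of 9 matched pluripotency genes 1 and 2, and of 8 blood cell genes 3 and 3. At CCN1, a matricellular target of YAP, specific regions of both constructs stood side by side. The full-length-specific region chr1:85527713-85528382 had ranks of 77.5 and 63.5, and the CTD-deletion-specific region chr1:85527080-85527653 had ranks of 92.4 and 83.0 and overlapped wild type replicate 1 and the SOX2-set wild type.

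Such adjacency was rare. A CTD-deletion-specific region lay within 1 kb of 43 of the 5042 full-length-specific regions (0.853%), and another full-length-specific region lay within 1 kb of 34 (0.674%). Within 10 kb the numbers were 272 and 283. Among CTD-deletion-specific regions 279 had a full-length-specific region within 10 kb and 387 another region of their own side. At equal length, 173 of 5792 full-length-specific regions had a region of the other side within 10 kb and 361 another of their own. For the 4467 CTD-deletion-specific regions these numbers were 174 and 152.

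The FOXA2 gene itself, chr20:22580998-22585490, had a peak in all 4 construct lists at a rank of 98.9 or above. The peaks spanned chr20:22581715-22583222 and chr20:22581746-22583295 in full-length replicates 1 and 2, and chr20:22581782-22582925 and chr20:22581754-22583047 in deletion replicates 1 and 2. Full-length replicate 2 had a further peak at chr20:22584036-22584963, with a rank of 98.0. Wild type replicates 1 and 2 had peaks in the same place with ranks of 67.2 and 98.1, whereas the SOX2-set wild type had an entry only at chr20:22583822-22585189, which overlaps that further peak. A construct in the genome can add reads to the part of the gene it carries, and no exon positions were used here, so these peaks check neither the deletion nor the wild-type labels. Of the specific regions near the family, FOXA1 had 1 CTD-deletion-specific region 8902 bp away, FOXA2 had 1 full-length-specific and 2 CTD-deletion-specific regions over 50 kb away, and FOXA3 had 1 full-length-specific region. At equal length the FOXA2 numbers turned to 3 full-length-specific and 0 CTD-deletion-specific regions.

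The sides were spread unevenly over chromosomes. At equal length there were 3.08 full-length-specific regions per CTD-deletion-specific one on chromosome 22, 2.67 on chromosome 17, 2.58 on chromosome 15 and 2.36 on chromosome 20, against 0.843 on chromosome 4 and 0.646 on chromosome X. The share of a library's peaks on chromosome 22 was 2.31% in full-length replicate 2 and 3.17% in wild type replicate 2, and from 1.70% to 1.87% in the other 4 lists. On chromosome X it was 1.42% and 0.785% in that pair and from 1.88% to 1.99% in the others. The 2 full-length libraries thus differed in the same places, and the part of list processing or copy number in these ratios was not tested.

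**Figure D5:**
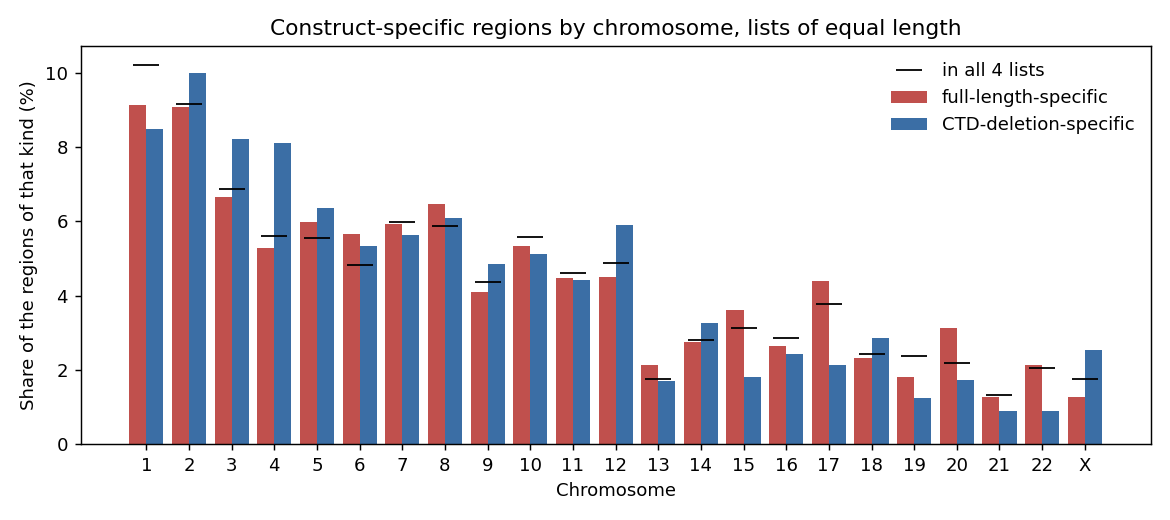
Share of full-length-specific, CTD-deletion-specific (bars) and all-4-list regions (black marks) on each chromosome (percent of the regions of that kind, lists of equal length). Chromosomes 15, 17, 20 and 22 hold a larger share of the full-length-specific regions and chromosomes 3, 4 and X of the CTD-deletion-specific regions.

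The excess also varied between 10-Mb windows of a chromosome, and those with the largest differences are given here. On chromosome 5 from 20 to 30 Mb, 54 full-length-specific regions stood against 7 CTD-deletion-specific ones, and the peak numbers were high in both full-length libraries, 324 and 272, against 167 and 192 with the deletion. On chromosome 10 from 50 to 60 Mb the regions numbered 61 and 14, with 307 and 314 peaks against 261 and 238. On chromosome 22 from 20 to 30 Mb they numbered 52 and 5, with 324 and 582 peaks against 322 and 332. Among the construct lists the peak number was thus high only in full-length replicate 2, and wild type replicate 2 had 412 peaks there against 129 in replicate 1. The part of the peak number in the excess was not tested. On chromosome 1 from 120 to 130 Mb, 42 stood against 5, with 466 and 1217 peaks against 576 and 374, and wild type replicate 2 had 1195 there against 272 in replicate 1. The opposite case was strongest on chromosome 4 from 180 to 190 Mb, which holds the CYP4V2 cluster, with 10 against 39 and with 152 and 101 peaks against 222 and 204. On chromosome 2 from 0 to 10 Mb, 5 stood against 28, with 155 and 125 peaks against 188 and 218.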

How the data were processed

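ATAC-seq peak lists of 6 U2OS libraries, 1 per library, and 3 lists of the SOX2 set were used. Per the submitters' processing notes, FastQC 0.10.1, Trim Galore, Bowtie2 2.4.4, SAMtools 0.1.18, MACS2 and deepTools 2.4.1 were applied, with build hg38; their settings are not given in the sources used here, apart from a p threshold in the peak names of 2 lists. Each peak's fold enrichment is a ratio deposited by the authors, as are its −log10 p and −log10 q, and a score and the summit position deposited with it. The SOX2-set lists have the layout of the IDR procedure and were deposited by the authors per group; their inputs are taken to be both samples. Fold and −log10 p were used only to rank or filter peaks within a list.

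Peaks on chromosomes 1 to 22 and X were merged (1 bp), and overlaps, Wilson intervals and exact permutation tests were computed with Python 3.11.15, NumPy 2.4.6, pandas 2.3.3 and SciPy 1.17.1, and checked on simulated lists. Regions named were the 8 per side with the highest lower rank, and genes the 8 per side with the largest difference in regions within 100 kb of the start site. Of each gene list, up to 4 genes with the most specific regions could be named, and any others named, GRHL2 among them, and the promoter genes described were chosen after their values were seen. Gene groups were counted within 100 kb of the whole gene rather than of the start site, since start sites cover 15812 of 19974 genes. The members and lists were chosen with earlier results of these data known. Of 150 list genes 149 were matched. No genome sequence was used, so a planned search for forkhead motifs at peak summits was not run, and RefSeq promoter windows were searched instead. Replicates are labelled biological, and nothing ties equal numbers across groups to a shared day or culture. Alternatives were list length, a common −log10 p threshold, ranking by fold, the overlap rule, summit windows, left-out libraries and single list pairs. Some items are not reported here.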

Additional observations from a re-analysis of the deposited data

How the results depend on the processing

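Counts moved with list length. Full-length-specific regions (5042) came to 2251 and 1135 with the strongest 20000 and 10000 peaks. CTD-deletion-specific regions (6523) came to 3789, 2285 and 1236 with the strongest 40000, 20000 and 10000 peaks and to 2082 at the common −log10 p. Regions in all 4 lists (28424) came to 13991, 6223 and 2654 in that order of lengths, to 13798 at the common −log10 p and to 11826 when peaks had to cover 50% of a region. Leaving out 1 library at a time gave from 7410 to 93927 full-length-specific, from 9038 to 80091 CTD-deletion-specific and from 30539 to 37046 shared regions. The full-length minus deletion count (-1481) turned to 1325 at equal length, 385 at 40000, 4697 at the common −log10 p and 1147 with ranking by fold. It was -34 at 20000 and -101 at 10000, and ranged from -72681 to 84889 with 1 library left out. Genes with a specific region within 20 kb numbered 3334 and 3409.

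The deletion minus full-length share with a wild-type peak kept its sign under every list length, threshold, ranking and overlap choice run. For wild type replicate 1 (9.66 percentage points) it was 16.6 at equal length, 19.7, 22.3 and 24.1 at 40000, 20000 and 10000, 18.6 at the common −log10 p, 15.9 by fold and 6.95 with summit windows. For wild type replicate 2 (1.26) it was 7.09, 9.61, 9.56, 11.5, 11.2, 6.76 and 0.0352 in the same order. For the SOX2-set wild type (23.9) it was 31.8, 33.1, 31.5, 34.3, 31.9, 31.4 and 17.4, and 20.3 when peaks had to cover 50% of a region. Single list pairs, a comparison chosen after seeing the data like that with the SOX2-set wild type, gave 5.26, 7.71, 2.60 and 5.36 for replicate 1, then 6.41, 6.00, -7.97 and -9.47 for replicate 2, and 6.90, 20.1, 1.30 and 15.6 for the SOX2-set wild type. With 1 library left out the ranges were -3.34 to 14.5, -12.1 to 15.1 and -11.5 to 33.0: it turned in all 3 lists without deletion replicate 1 (-2.47, -12.1 and -2.90) or replicate 2 (-3.34, -8.74 and -11.5), and in replicate 2 without full-length replicate 1 (-1.65). A side then needs a single list; the cause was not tested further.

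Of the per-library differences, that in start-site share (1.56) turned at the common −log10 p (-0.658) and ranged from 0.323 to 2.81 with 1 library left out. That in median width (-24.2 bp) was 14.5 with all peaks, 0.0 at 10000 and from -84.8 to 36.2 with 1 library left out, turning without full-length replicate 2 (36.2) or deletion replicate 2 (10.5). That in overlap with the SOX2-set wild type (-5.25) stayed below 0 in all alternatives, from -11.2 to -0.339, and from -8.27 to -2.23 with 1 library left out. With the replicate number as a block the differences are the same, 1.56, -24.2 and -5.25, with exact permutation p of 0.5, 1.0 and 0.5, and 0.5 is the smallest that 2 pairs can give. Read depth is unknown, so absence of a peak cannot be told apart from low coverage.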

Other observations

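The SOX2-set lists of the other constructs showed the same order as their wild type. Of the CTD-deletion-specific regions 32.5% (Wilson 95% interval 31.4 to 33.7) overlapped an entry of the SOX2 list at an IDR of at most 0.05 and 35.8% (interval 34.6 to 37.0) an entry of the SOX2-FOXA2 CTD fusion list. Of the full-length-specific regions 16.4% (interval 15.4 to 17.4) and 15.4% (interval 14.5 to 16.5) did. By their labels the fusion carries the FOXA2 CTD and the deletion construct lacks it, but the residues removed are not given. Over all merged regions both shares were 17.2%.

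In the RefSeq promoter windows, the TEAD motif GGAATG was found in 16.7% of the 66 windows of the deletion side (interval 9.57 to 27.4), in 10.0% of the 150 of the full-length side (interval 6.15 to 15.8) and in 11.7% of all. The ETS motif CCGGAAGT was found in 1.52% and 4.67%, against 10.9% of the windows of regions in all 4 lists. RUNX, CTCF and SOX matches were found in 10.6%, 0.0% and 6.06% of the windows of the deletion side. On the full-length side the shares were 10.0%, 4.0% and 2.0%, and over all windows 10.8%, 2.69% and 2.39%. The strongest full-length-specific promoter region was that of RPL35A, a ribosomal protein gene, with ranks of 97.9 and 79.7, and it overlapped a peak in both wild-type lists and an entry of the SOX2-set wild type. The strongest of the deletion side overlapped the promoter windows of APOO, a mitochondrial protein gene, and of CXorf58, with ranks of 76.7 and 93.9 and a peak in wild type replicate 1.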
